A study of Homo sapiens with 2 samples.

Results

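The 10 genes SPRY1, SPRY2, SPRY4, SPRED1, SPRED2, DUSP4, DUSP6, ETV1, ETV4 and ETV5 were taken by symbol from the 36601 genes of the deposited count tables and followed through both libraries of an H7 culture series. H7 is a human embryonic stem cell line, and per the labels its derivatives were astrocyte progenitor cells treated with LIF, BMP4 and FGF1. The series has 1 library of day 220 cells and 1 of day 160 cells, and each combined 3 differentiations that no label tells apart. Both groups therefore share the line and all 3 agents, there was no untreated control and no replicate of either day, and differences between the libraries have no replicate check and carry no p-value. The protocol text of the day 220 library gives 160 days while its title and time label give day 220, and the file names of the libraries carry different prefixes that no label explains.

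Fibroblast growth factors bind receptor tyrosine kinases, and the signal passes through RAS, RAF and MEK to the kinase ERK. ERK activity induces a set of genes that damp the same relay: Sprouty (SPRY) and SPRED proteins hold back RAS and RAF activation, and DUSP4 and DUSP6 are phosphatases that remove the activating phosphates from ERK. ETV1, ETV4 and ETV5 are ETS-family transcription factors induced by FGF signalling, and their transcripts are widely used as readouts of the pathway. The repressor CIC, which ERK signalling inactivates, binds octamers of the form TGAATGAA or TGAATGGA and holds down ETV genes and other FGF targets.

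The day 220 library held 676 barcodes, of which 518 were kept after filters, with 25487554 UMIs (unique molecular identifiers, each standing for 1 captured RNA molecule). The day 160 library held 13018 barcodes, of which 9389 were kept, with 115158004 UMIs. The median depth was 46080 UMIs per cell at day 220 and 10041 at day 160, so that shares of cells are given after each cell was thinned to 5000 UMIs, with the unthinned share beside them. The libraries had 3 barcodes in common. Of the defining astrocyte markers, GFAP stood at 135 CPM (counts per 1000000 UMIs) at day 220 and 551 CPM at day 160, S100B at 570 CPM at day 220 and 172 CPM at day 160, and AQP4 and ALDH1L1 were under 10 CPM in both libraries.

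RefSeq promoter windows (build GRCh38.p14, 250 bases before an annotated start) were matched for 7 of the 10 genes, 16 windows in all. A CIC octamer (TGAATGAA, TGAATGGA, TCAATGAA or TCAATGGA, on either strand) was present in 2 of them, 1 of DUSP6 and 1 of ETV1, against 3.18% of 35116 windows of all genes. The sites are shown because DUSP6 and ETV1 both had their highest day 160 level in the same cluster, described further on. SPRY4 also had its highest day 160 level in that cluster, and its matched window held no octamer. A link between octamers and levels was not tested. Each site is written 5′ to 3′ on the gene's strand with the octamer in capitals. For DUSP6 (chr12:89352507-89352536, minus strand) the octamer ended 17 bases before the start, and for ETV1 (chr7:13991532-13991561, minus strand, upstream of the annotated gene) 118 bases before it. The DUSP6 site lies inside the annotated span of the gene, and its window overlaps an annotated exon on that strand.
DUSP6 site: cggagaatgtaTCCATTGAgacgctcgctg
ETV1 site: ccggaattttgTGAATGGAgacgaaaggtg
The capitals of the DUSP6 site are the octamer as it reads on the opposite strand. The whole ETV1 window (chr7:13991426-13991675, minus strand) is given next, with the octamer again in capitals; it also holds CCGGAA, the core of ETS-factor sites, which does not overlap the octamer.
ETV1 window: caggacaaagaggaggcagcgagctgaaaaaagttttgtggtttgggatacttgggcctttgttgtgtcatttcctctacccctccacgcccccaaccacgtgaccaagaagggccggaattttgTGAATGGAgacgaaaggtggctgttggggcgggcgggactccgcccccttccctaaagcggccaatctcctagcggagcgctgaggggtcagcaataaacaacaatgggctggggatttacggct
CCGGAA, on either strand, was found in 5 of the 16 windows (of ETV1, SPRY1 and SPRY2) and in 14.5% of all windows. The ETV1 windows at chr7:13990703-13990952 and chr7:13990707-13990956 overlap and share the same site, so the 5 windows do not hold 5 separate sites. The AP-1 word TGANTCA was found in 0 of the 16 and in 6.57% of all windows.

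Of the 10 genes, 9 stood higher at day 220 and 1 stood lower. The UMIs of all 10 genes together made up 656 CPM at day 220 and 206 CPM at day 160. At least 2-fold higher on the log2 (CPM + 1) scale were 9 of 10 genes, and 0 of 10 were at least 2-fold lower. Among all 28363 genes with a UMI in either library, 14.4% were at least 2-fold higher and 2.53% at least 2-fold lower, and among the 10167 genes at 10 CPM or more in at least 1 library the shares were 23.0% and 5.09%. Of the 10 genes, 9 passed that 10 CPM minimum and ETV4 did not; SPRY1, SPRY4, SPRED2 and DUSP6 passed it at day 220 alone, and their passing already favours a difference in that direction. The median log2 ratio was 1.73 over the 10 genes and 0.09 over all genes with a UMI.

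The Sprouty genes are short: SPRY1 lies at chr4:123396795-123403760 (plus strand), SPRY2 at chr13:80335976-80340951 and SPRY4 at chr5:142310427-142326455 (both minus strand; GENCODE 29 on GRCh38, as for all spans). SPRY1 stood at 89.8 CPM at day 220 (exact Poisson 95% interval 86.2 to 93.6) and 6.05 CPM at day 160 (5.61 to 6.52), a ratio of 14.8 (13.6 to 16.2). These intervals and all others given here cover counting error only. A SPRY1 UMI was found in 25.4% of day 220 cells and 2.41% of day 160 cells after thinning (51.4% and 5.41% unthinned). SPRY2 stood at 137 CPM at day 220 and 51.5 CPM at day 160, a ratio of 2.66 (2.56 to 2.78), and SPRY4 at 28.7 CPM at day 220 and 7.75 CPM at day 160, a ratio of 3.70 (3.35 to 4.09). The 3 paralogs thus shared a direction and differed in size, with SPRY1 farthest apart between the libraries.

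SPRED1 spans chr15:38252326-38357249 (plus strand) and SPRED2 chr2:65310851-65432637 (minus strand), both mostly intron. DUSP4 lies at chr8:29333064-29350668 and DUSP6 at chr12:89347232-89353271, both on the minus strand. SPRED2 stood at 65.9 CPM at day 220 and 6.69 CPM at day 160, a ratio of 9.86 (9.05 to 10.7), and was detected in 24.6% and 2.92% of thinned cells (69.1% and 7.11% unthinned). SPRED1 stood at 112 CPM at day 220 and 24.1 CPM at day 160, a ratio of 4.64 (4.40 to 4.89). Among the ERK phosphatases, DUSP4, a nuclear enzyme, stood at 53.9 CPM at day 220 and 15.9 CPM at day 160, a ratio of 3.40 (3.17 to 3.65). DUSP6, which acts on ERK in the cytoplasm, stood at 17.5 CPM at day 220 and 5.76 CPM at day 160, a ratio of 3.04 (2.69 to 3.43). Both SPRED genes and both phosphatases were therefore higher at day 220 by more than their counting error.

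The ETV genes differed in direction. All lie on minus strands, ETV1 at chr7:13891228-13991425, ETV4 at chr17:43527844-43579620 and ETV5 at chr3:186046308-186110318. ETV5 stood at 93.5 CPM at day 220 and 14.5 CPM at day 160, a ratio of 6.43 (6.04 to 6.85), and ETV4 at 8.12 CPM at day 220 and 2.46 CPM at day 160, a ratio of 3.30 (2.75 to 3.97). ETV1 stood at 50.02 CPM at day 220 and 71.4 CPM at day 160, a ratio of 0.701 (0.660 to 0.744). ETV1 alone made up 7.62% of the UMIs of the 10 genes at day 220 and 34.6% at day 160. Its detection after thinning was 20.3% of cells at day 220 and 26.6% at day 160, although 63.3% of day 220 cells and 39.0% of day 160 cells held a UMI before thinning.

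**Figure D1:**
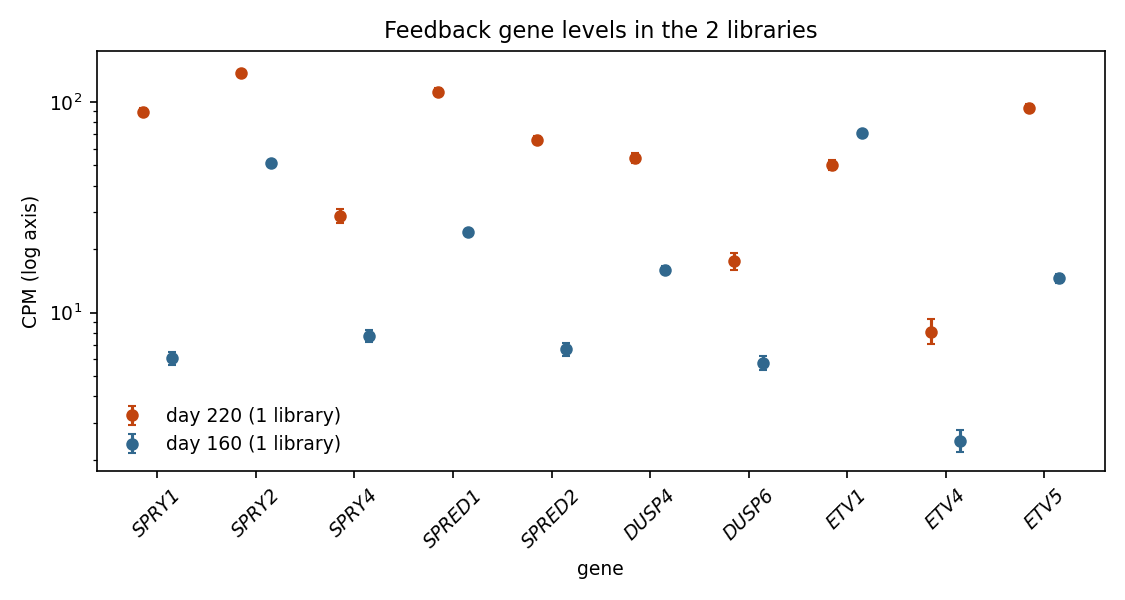
Level of each of the 10 genes in CPM (log axis) in the day 220 library (left point of each pair) and the day 160 library (right point); bars are exact Poisson 95% intervals and there is 1 library per day. The other 9 genes lie higher at day 220, and ETV1 lies lower, at 50.02 CPM at day 220 and 71.4 CPM at day 160.

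The ratio between these libraries moved with intron length over all genes, so each ratio was also taken relative to the running median over genes of like intron length (GENCODE 29). Centred in this way, 9 of 10 genes were at least 2-fold higher and 1, ETV1, at least 2-fold lower. Of the 9 at 10 CPM or more, 8 were higher and 1 lower, where 10.3% and 7.37% of all counted genes were. The short-intron SPRY1 (3003 intron bases) had a log2 ratio of 3.69 as measured and 4.06 centred. The long-intron SPRED1 (96664 intron bases) had 2.17 as measured and 1.42 centred, and SPRED2 (116633 intron bases) 3.12 and 2.11. ETV1 (90582 intron bases) had −0.50 as measured and −1.13 centred. The sources used here do not say whether reads in introns were counted, or on which strand, and annotated neighbours overlap SPRY4 (SPRY4-AS1), SPRED2 (AC012370.1), DUSP6 (AC024909.1), ETV4 (DHX8) and ETV5 (ETV5-AS1 and DGKG), whose counts are uncertain to that extent.

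To see which cells held these transcripts, each library was clustered on genes other than the 10 and other than the pathway genes described further on, which gave 7 clusters at day 220 and 12 at day 160. A cell class name with the ending "-like" needed at least 3 markers of that class 2-fold above the rest of the library and was given by hand after the markers and leading genes were seen; other clusters carry their leading genes. Some of those also reached 3 markers: the day 160 CRABP1 and HOXB cluster held 8 of 14 neuron and 5 of 11 neuronal precursor markers, the day 220 DLX6-AS1 and NPY cluster 3 of 14 neuron markers, and the GADD45G, RAMP1 and GOLGA8B clusters at day 160 between 3 and 4 of a class. The astrocyte-like clusters also reached 3 radial glia markers. At day 220 the cluster held 7 of 12 radial glia and 6 of 13 astrocyte markers, and at day 160 it held 6 of 12 and 7 of 13. The name therefore does not set them apart from radial glia. Doublets called by Scrublet (6 at day 220, 583 at day 160) had been removed.

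At day 220 the level was highest in the astrocyte-like cells. The 159 astrocyte-like cells, led by SPARCL1, EDNRB and HLA class II genes, were 30.7% of cells and held 35.6% of all UMIs but 45.9% of the UMIs of the 10 genes. Their summed level was 845 CPM, followed by 741 CPM in the OLIG1 cluster of 82 cells. The mesenchymal-like cells stood at 558 CPM, the neuronal precursor-like at 534 CPM and the cycling-like at 525 CPM, and the intervals of these 3 overlapped. The lowest were the DLX6-AS1 and NPY cluster at 445 CPM (157 cells) and the neuron-like cells at 364 CPM (24 cells).

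SPRY1 had the widest range of the 10 genes over the day 220 clusters. It stood at 166 CPM (158 to 175) in astrocyte-like cells, 82.9 CPM in the OLIG1 cluster, 64.3 CPM in mesenchymal-like cells, 47.1 CPM in neuronal precursor-like cells, 29.5 CPM in cycling-like cells, 21.4 CPM in the DLX6-AS1 and NPY cluster and 4.64 CPM (0.56 to 16.8) in neuron-like cells. After thinning, 53.1% of astrocyte-like cells had a SPRY1 UMI (83.02% unthinned). No cell class is known to lack these genes, so the lowest cluster serves as the background: 0 of 21 thinned neuron-like cells had a SPRY1 UMI, with an exact Clopper-Pearson upper limit of 16.1% (4.17% unthinned). Median depths were 59838 UMIs in astrocyte-like cells and 18690 UMIs in neuron-like cells.

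SPRY2, SPRY4 and ETV5 were also highest in the day 220 astrocyte-like cells. SPRY2 stood at 202 CPM there and at 182 CPM in mesenchymal-like cells, whose intervals overlapped, against 49.8 CPM in the DLX6-AS1 and NPY cluster. SPRY4 stood at 47.7 CPM in astrocyte-like cells, with the 6 other clusters between 9.28 and 24.0 CPM. ETV5 stood at 129 CPM in astrocyte-like cells, 116 CPM in the OLIG1 cluster (intervals overlapping) and 16.3 CPM in neuron-like cells.

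The other 6 genes had their maxima elsewhere at day 220. SPRED1 and SPRED2 were highest in the OLIG1 cluster, at 156 CPM and 94.3 CPM, with intervals that overlapped those of the next cluster, and SPRED1 was lowest in mesenchymal-like cells at 57.2 CPM. DUSP4 was highest in the DLX6-AS1 and NPY cluster at 75.1 CPM, and its levels in the other clusters ran from 32.7 to 56.4 CPM. DUSP6 ran from 6.96 CPM in neuron-like cells to 28.8 CPM in neuronal precursor-like cells, and every neighbouring pair in that order overlapped. ETV1 stood at 107 CPM in neuron-like cells, 90.3 CPM in neuronal precursor-like cells, 76.7 CPM in the OLIG1 cluster, 53.6 CPM in the DLX6-AS1 and NPY cluster, 45.02 CPM in astrocyte-like cells, 37.6 CPM in cycling-like cells and 16.6 CPM in mesenchymal-like cells. ETV4 was highest in cycling-like cells at 18.5 CPM (12.6 to 26.1), and no other cluster passed 8.78 CPM.

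Compared with the rest of its library at 2-fold, 2 of the 9 genes that reached 10 CPM were higher in the astrocyte-like cells (SPRY1 and SPRY4), where 3.16% of all counted genes were. None was at least 2-fold lower, where 5.07% were. In the DLX6-AS1 and NPY cluster 5 of 9 were at least 2-fold lower and 0 higher, where 7.12% and 3.17% of all counted genes were; these were SPRY1, SPRY2, SPRED2, DUSP6 and ETV5. In neuron-like cells 6 of 9 were lower and 1, ETV1, was higher, where 19.0% and 13.0% of all counted genes were. SPRY1, SPRY4 and DUSP6 were under 10 CPM in neuron-like cells. They were counted through the rest of the library alone, which already favours a lower level.

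**Figure D2:**
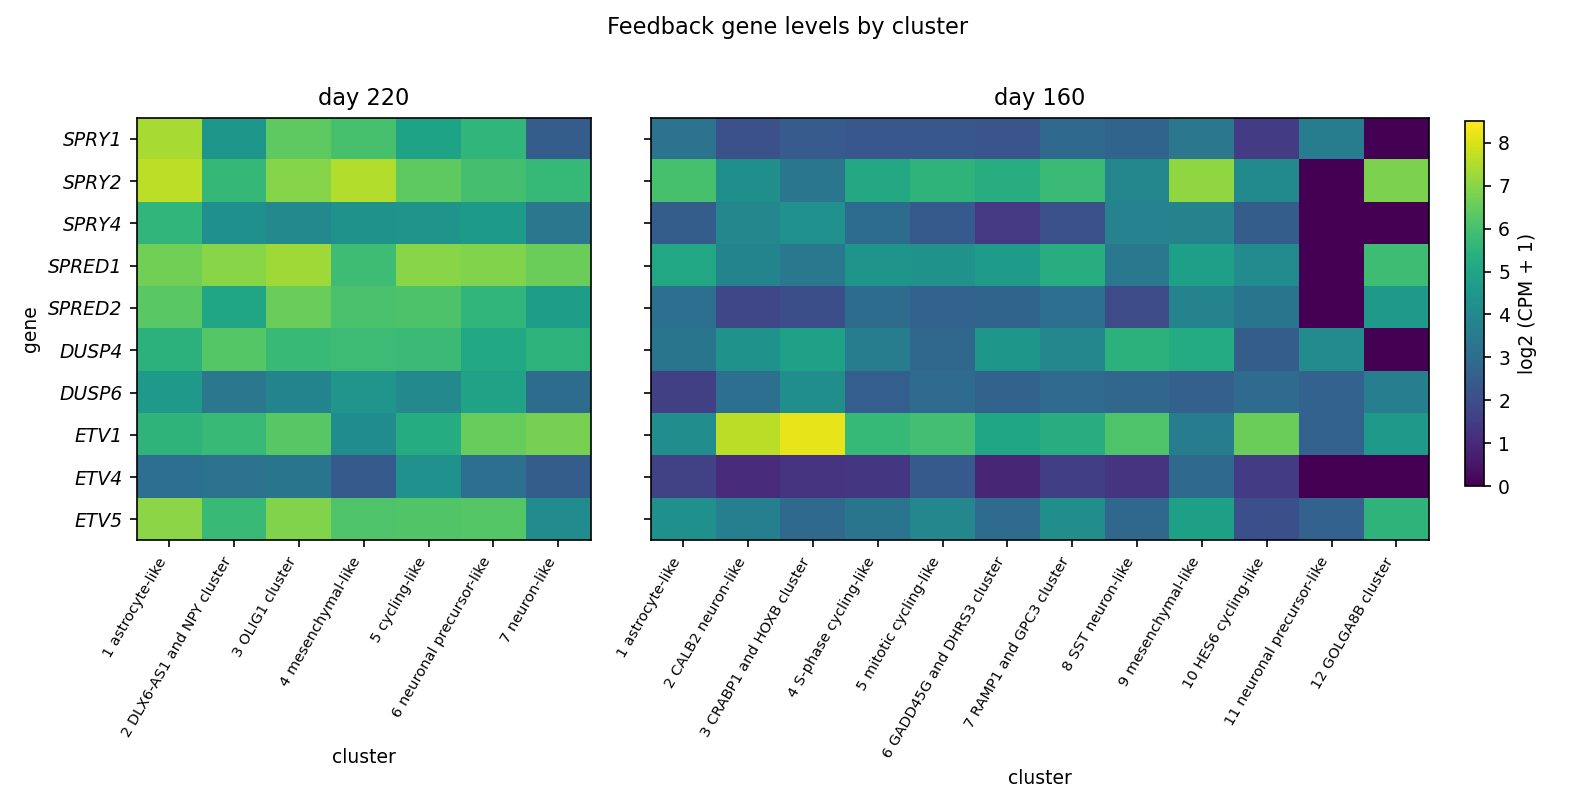
Heat map of log2 (CPM + 1) of each gene (rows) in each cluster (columns) at day 220 (left, 7 clusters) and day 160 (right, 12 clusters), on 1 colour scale. At day 220 SPRY1, SPRY2, SPRY4 and ETV5 each have their brightest cell in the astrocyte-like column; at day 160 ETV1 is bright in the CRABP1 and HOXB cluster and the CALB2 neuron-like cells, and SPRY2 in the mesenchymal-like cells. The last 2 columns at day 160 rest on 26 cells each and on 8 and 24 UMIs of these genes.

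At day 160 the 10 genes differed in which clusters held their highest levels. ETV1 stood at 289 CPM (279 to 300) in the CRABP1 and HOXB cluster, 197 CPM in CALB2 neuron-like cells, 94.6 CPM in HES6 cycling-like cells and 70.0 CPM in SST neuron-like cells, against 17.0 CPM in astrocyte-like cells and 10.9 CPM in mesenchymal-like cells. An ETV1 UMI was found after thinning in 59.5% of the 1205 CRABP1 and HOXB cells (68.9% unthinned) and in 4.18% of the 239 mesenchymal-like cells (27.6% unthinned), whose median depths were 7688 and 30850 UMIs. SPRY4 stood at 18.8 CPM in the CRABP1 and HOXB cluster, 14.3 CPM in CALB2 neuron-like cells, 13.1 CPM in mesenchymal-like cells and 4.68 CPM in astrocyte-like cells. DUSP6 stood at 17.8 CPM in the CRABP1 and HOXB cluster, 3.91 times the rest of the library, at 7.61 CPM in CALB2 neuron-like cells and at 2.05 CPM in astrocyte-like cells. The CRABP1 and HOXB cluster was led by the retinoic acid-binding protein gene CRABP1 and HOXB genes, with neuronal genes such as ELAVL3.

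SPRY2, SPRED1, SPRED2 and ETV5 were low in the CRABP1 and HOXB cluster at day 160, and their highest levels, among clusters of over 100 cells, lay elsewhere. SPRY2 stood at 136 CPM in mesenchymal-like cells, 63.9 CPM in astrocyte-like cells and 9.22 CPM in the CRABP1 and HOXB cluster. SPRED1 stood at 38.5 CPM in the RAMP1 and GPC3 cluster, 32.4 CPM in astrocyte-like cells and 9.60 CPM in the CRABP1 and HOXB cluster. ETV5 stood at 27.1 CPM in mesenchymal-like cells, 18.3 CPM in astrocyte-like cells and 6.65 CPM in the CRABP1 and HOXB cluster. SPRED2 stood at 13.1 CPM in mesenchymal-like cells and 3.14 CPM in the CRABP1 and HOXB cluster. DUSP4 stood at 42.6 CPM in SST neuron-like cells, 36.2 CPM in mesenchymal-like cells, 28.1 CPM in the CRABP1 and HOXB cluster and 8.89 CPM in astrocyte-like cells. ETV4 stood at 6.55 CPM in mesenchymal-like cells, 4.26 CPM in mitotic cycling-like cells and at most 2.23 CPM in the other clusters. SPRY1 stayed low in all 10 clusters of over 100 cells, between 1.78 and 9.40 CPM.

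In the CRABP1 and HOXB cluster 3 of 7 counted genes were at least 2-fold higher than in the rest of the library (SPRY4, DUSP6 and ETV1) and 3 at least 2-fold lower (SPRY2, SPRED1 and ETV5), where 3.98% and 11.6% of all counted genes were. SPRY4 and DUSP6 passed the 10 CPM minimum through this cluster alone, and SPRY2, SPRED1 and ETV5 through the rest alone. Such passing already favours the direction seen. In mesenchymal-like cells 3 of 7 were higher (SPRY2, SPRED2 and DUSP4) and 1, ETV1, lower, where 6.23% and 4.60% of all counted genes were. SPRY4 and SPRED2 passed the minimum through the mesenchymal-like cells alone. In astrocyte-like cells 0 of 5 were higher and 2 lower (DUSP4 and ETV1), where 5.14% and 7.77% were. Here DUSP4 passed the minimum through the rest of the library alone. Across the 10 day 160 clusters of over 100 cells, ETV1 correlated with DUSP6 at r = 0.81 and with SPRY2 at r = −0.89, on log2 (CPM + 10) values. SPRY2 correlated with ETV5 at 0.87 and with SPRED1 at 0.82. Over all 12 clusters, which add 2 of 26 cells, the ETV1 and SPRY2 value was −0.36 and the SPRY2 and SPRED1 value 0.91. Across the 7 day 220 clusters SPRY1 correlated with ETV5 at 0.94 and with SPRY2 at 0.86, and ETV1 with SPRY2 at −0.63. These values are descriptions, since clusters of a library share its preparation and differ in depth.

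Which day 160 cluster had the highest summed level depended on ETV1, while the astrocyte-like cells held the most UMIs of these genes with it (6603) and without it (5926). With all 10 genes the summed level was highest in the CRABP1 and HOXB cluster at 388 CPM, followed by CALB2 neuron-like cells at 288 CPM and mesenchymal-like cells at 284 CPM, and stood at 165 CPM in astrocyte-like cells. Without ETV1 it was highest in mesenchymal-like cells at 273 CPM, with 148 CPM in astrocyte-like cells and 99.1 CPM in the CRABP1 and HOXB cluster. The mesenchymal-like cells, led by COL1A1, TAGLN and ACTA2, were 2.71% of day 160 cells and held 9.15% of all UMIs and 12.6% of the UMIs of the 10 genes. At day 220 the choice mattered less, and the astrocyte-like cells led with and without ETV1, at 845 CPM and 800 CPM.

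The libraries were then compared within 4 classes that both contained. In astrocyte-like cells (159 at day 220, 2522 at day 160) all 10 genes passed 2-fold in favour of day 220, and 0 of 10 were lower. Of the 9 at 10 CPM or more, 9 were higher and 0 lower, where 22.9% and 4.87% of all counted genes were. After centring on intron length 8 of 10, and 7 of those 9, were higher and 0 lower, against 10.7% and 7.19% of all counted genes. Of those 9, SPRY1, SPRY4, SPRED2, DUSP4 and DUSP6 passed the 10 CPM minimum at day 220 alone. Their passing already favours a difference in that direction. SPRY1 stood at 166 CPM in day 220 astrocyte-like cells and 8.36 CPM in day 160 astrocyte-like cells, a ratio of 19.9 (17.6 to 22.4). DUSP6 stood at 22.7 CPM at day 220 and 2.05 CPM at day 160, a ratio of 11.04 (8.51 to 14.4), and SPRY4 at 47.7 CPM at day 220 and 4.68 CPM at day 160, a ratio of 10.2 (8.55 to 12.2). Within this class the ratios of DUSP6 and SPRY4 exceeded those of the whole libraries. ETV1 was also higher here, at 45.02 CPM at day 220 and 17.0 CPM at day 160, a ratio of 2.65 (2.34 to 3.01). The summed level was 845 CPM at day 220 and 165 CPM at day 160. Both astrocyte-like clusters held radial glia markers beside astrocyte markers, and HLA class II genes were among the leading genes of both. The 2 clusters were defined in separate libraries.

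In mesenchymal-like cells (40 and 254) the difference was smaller. In favour of day 220, 5 of 10 genes passed 2-fold, all of them among the 9 at 10 CPM or more. In favour of day 160, 0 passed. The shares of all counted genes were 19.1% and 5.61%. After centring the counts were 4 and 0, where 9.16% and 7.59% of all counted genes passed. SPRY1 and DUSP6 passed the 10 CPM minimum at day 220 alone, which already favours that direction. SPRY2 stood at 182 CPM at day 220 and 136 CPM at day 160, a ratio of 1.34 (1.22 to 1.47), and the summed level at 558 CPM at day 220 and 284 CPM at day 160. SPRY1 stood at 64.3 CPM at day 220 and 9.40 CPM at day 160, and ETV4 at 4.36 CPM at day 220 and 6.55 CPM at day 160 with an interval of the ratio that spans 1 (0.361 to 1.16). In cycling-like cells (31 and 2160) 9 of 10 were at least 2-fold higher and 0 lower, where 25.3% and 2.89% of all counted genes were. There SPRY1, SPRY4, SPRED2, DUSP4, DUSP6 and ETV4 passed the minimum at day 220 alone, which already favours that direction. The summed level was 525 CPM at day 220 and 160 CPM at day 160. In neuron-like cells (24 at day 220, and 1998 in the CALB2 and SST clusters at day 160) 4 of 10 were at least 2-fold higher. Of the 7 at 10 CPM or more, 3 were higher, where 29.2% of all counted genes were. SPRED2 passed that minimum at day 220 alone and SPRY4 at day 160 alone. Only 2 SPRY1 UMIs, 4 SPRY4 UMIs, 3 DUSP6 UMIs and 2 ETV4 UMIs were counted in the day 220 neuron-like cells. The ratios of these genes have intervals spanning 1, and ETV4 was among the 4 that passed 2-fold. SPRED1 at 95.2 CPM at day 220 and 12.4 CPM at day 160 had a ratio of 7.69 (5.32 to 10.9).

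ETV1 differed in sign between classes. It was higher at day 220 in astrocyte-like cells (log2 ratio 1.36) and in mesenchymal-like cells (0.56), and lower in cycling-like cells (−0.66) and neuron-like cells (−0.67). In cycling-like cells ETV1 stood at 37.6 CPM at day 220 and 60.1 CPM at day 160, and in neuron-like cells at 107 CPM at day 220 and 170 CPM at day 160. The CRABP1 and HOXB cluster, which held the highest ETV1 level at day 160, was left out of these classes although it held neuron markers, and with it the day 160 neuron-like level of ETV1 was 223 CPM and the log2 ratio −1.05. The sign in neuron-like cells rested on the CALB2 cluster: the log2 ratio was −0.88 against that cluster alone and 0.60 against the SST cluster alone. With the DLX6-AS1 and NPY cluster counted as neuron-like at day 220, it was −1.55, and 7 of the 10 genes in place of 4 were at least 2-fold higher. Centred on intron length, the ETV1 values were 0.75 in astrocyte-like, 0.09 in mesenchymal-like, −1.45 in cycling-like and −1.64 in neuron-like cells.

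**Figure D3:**
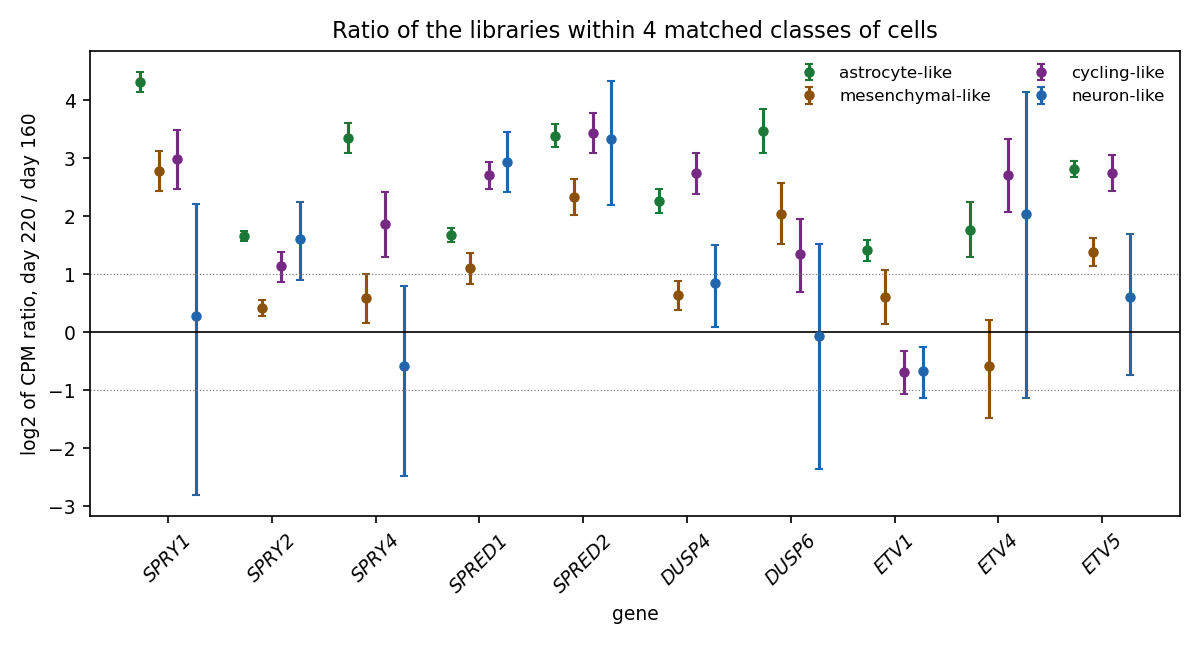
Log2 of the CPM ratio of day 220 over day 160 for each gene within 4 matched classes of cells, with exact conditional binomial 95% intervals; dotted lines mark 2-fold. All 10 genes lie above 1 on this axis in astrocyte-like cells, ETV1 lies below 0 in cycling-like and neuron-like cells, and the neuron-like intervals are wide because the day 220 library held 24 such cells.

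At equal depth, single cells held more different genes of the 10 at day 220. This number rises with the summed level, which was 656 CPM at day 220 and 206 CPM at day 160. It restates that difference and is no separate result on joint expression. After thinning to 5000 UMIs, cells held a mean of 2.13 different genes of the 10 at day 220 and 0.766 at day 160. None of the 10 was found in 16.2% of day 220 cells and 45.1% of day 160 cells. At least 3 were found in 188 of 488 day 220 cells (38.5%, Clopper-Pearson 34.2 to 43.0) and in 344 of 8699 day 160 cells (3.95%, 3.55 to 4.39). The highest number was 7 genes, in 2 cells, at day 220 and 6 genes, in 1 cell, at day 160. Of the cells with at least 3, 93 at day 220 and 269 at day 160 held exactly 3, and 107 and 1114 cells lay just under the limit with 2.

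Cells with at least 3 of the genes occurred in every day 220 cluster. They made up 55.2% of astrocyte-like cells (46.7 to 63.4), 47.5% of the OLIG1 cluster, 39.3% of cycling-like cells, 35.9% of mesenchymal-like cells, 24.0% of neuronal precursor-like cells, 23.3% of the DLX6-AS1 and NPY cluster and 19.0% of neuron-like cells (5.45 to 41.9). At day 160 the highest shares were 7.53% of mesenchymal-like cells (4.52 to 11.6), 5.74% of the RAMP1 and GPC3 cluster and 5.01% of astrocyte-like cells (4.19 to 5.95), whose intervals overlapped. The CRABP1 and HOXB cluster had 4.40% (3.31 to 5.71), and SST neuron-like cells had the lowest share among clusters of over 100 cells, 0.977%. Thus the lowest day 220 share, in neuron-like cells, lay above the highest day 160 share, and their intervals overlapped.

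**Figure D4:**
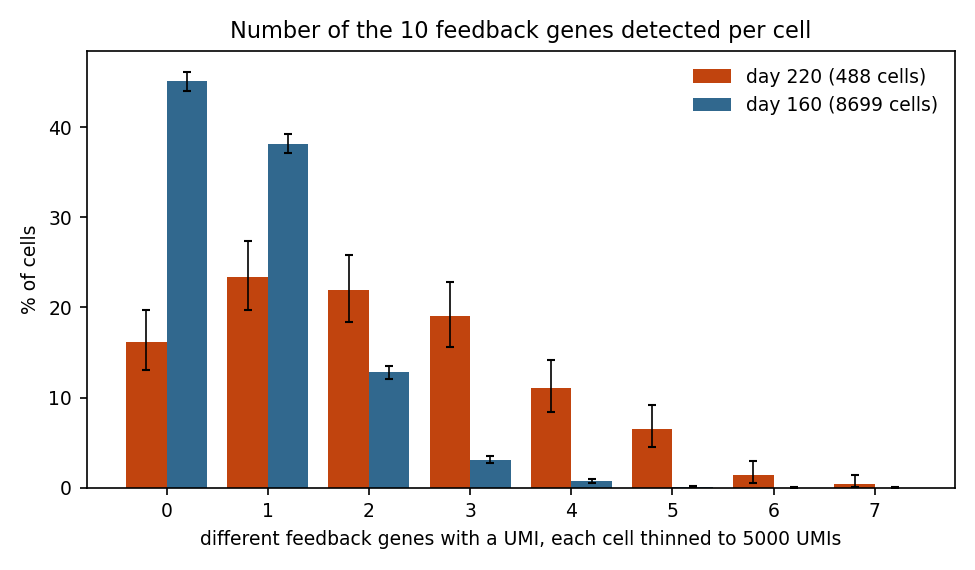
Share of cells (%) by the number of the 10 genes with a UMI after thinning each cell to 5000 UMIs, at day 220 (left bars, 488 cells) and day 160 (right bars, 8699 cells), with exact Clopper-Pearson 95% intervals. Cells with none of the 10 are 16.2% at day 220 and 45.1% at day 160, and cells with 3 or more are 38.5% at day 220 and 3.95% at day 160.

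Pairs of the genes were compared with what the clusters alone would give. At day 220, 26 of the 124 cells with SPRY1 also held SPRY4 (21.0%, 14.2 to 29.2), against 7.09% in SPRY1-negative cells of the same clusters. DUSP6 was found in 14.5% of cells with SPRY1, against 5.44% in SPRY1-negative cells of the same clusters. For the 2 phosphatases, 2 of 31 cells with DUSP6 also held DUSP4 at day 220 (6.45%, 0.79 to 21.4), against 18.9% in DUSP6-negative cells of the same clusters, a value within the interval. At day 160 it was 21 of 256 cells (8.20%, 5.15 to 12.3), against 7.69%. At day 160, SPRY1 was found in 7.30% of the 466 cells with ETV5 (5.11 to 10.0), against 2.35% in ETV5-negative cells of the same clusters, and DUSP4 in 13.5% of them (10.6 to 17.0), against 5.35%. ETV1 and SPRY2 were less often found together over the whole day 160 library than within its clusters: 10.1% of cells with ETV1 held SPRY2 (8.93 to 11.4), against 17.6% of all cells without ETV1 and 10.4% of ETV1-negative cells of the same clusters.

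Cells with at least 3 of the genes were set against the other cells of the same clusters for all other genes. At day 220, 5 of 9798 counted genes (0.0510%) were at least 2-fold higher in them and 11 (0.112%) at least 2-fold lower. The highest were BRINP1 at 15.8 CPM, against 3.44 CPM in the other cells, and PCP4 at 24.7 CPM, against 9.41 CPM. AL592295.3, SEZ6L, SLC4A4, TRPC4, RBP7, GAS1, ROBO2 and CA12 followed, with log2 ratios of 0.87 to 1.12. The lowest was CYP1B1 at 0.379 CPM, on 4 UMIs, against 12.5 CPM. IGFBP3, an insulin-like growth factor-binding protein, stood at 1.42 CPM, against 10.7 CPM, followed by COL1A1, CALB1 and ECEL1. CYP1B1, IGFBP3 and COL1A1 were leading genes of the day 220 mesenchymal-like cluster (40 cells), and BRINP1 of the neuron-like cluster (24 cells). The part of these small clusters in the values was not tested. At day 160, 2 of 8786 counted genes (0.0228%) were at least 2-fold higher, HRH1 and METTL7B, and 3 (0.0341%) at least 2-fold lower, IGFBP3, MMP7 and TLE3. IGFBP3 stood at 2.03 CPM in the cells with at least 3 of the genes, against 13.3 CPM in the others. EVA1C, TNFRSF12A, PLK4, NAB2, SHC3, ABTB2, TRIB2 and STK17A had log2 ratios of 0.78 to 0.99, and SNAP25 and DLK1 −0.85 and −0.81. The IGFBP3 values rested on 15 UMIs at day 220 and 10 UMIs at day 160 and on the limit of 3 genes: with at least 2 genes IGFBP3 was higher in the cells holding them, at log2 ratios of 3.89 and 0.74. FOS, an immediate early gene, had a log2 ratio of 0.01 in each library, and FGFR2 one of −0.90 at day 220 and −0.24 at day 160. The median depth was 52902.5 UMIs in these cells and 43119 in the others at day 220, and 11057 and 10568 at day 160; the part of depth in these values was not tested.

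Levels over clusters were compared with the mean of the 10 genes, each first scaled to equal spread over the clusters. The genes named have the largest of many r values taken over few clusters, so high values were favoured by the choice. Among 11664 genes outside the lists, the most alike over the 7 clusters at day 220 were ALDH6A1 (r = 0.99), RAB11B-AS1 (0.98), LDHB (0.98), DOLK (0.97) and OSBPL1A (0.97). LDHB, the heart-type lactate dehydrogenase subunit, ran from 295 CPM in neuron-like cells to 728 CPM in astrocyte-like cells. At day 160, among 12558 genes over 12 clusters, the most alike were GRB10 (0.93), an adaptor protein of receptor tyrosine kinases, ACTR2 (0.93), PRICKLE2 (0.90), KLHL5 (0.89) and METRNL (0.89). Over the 10 clusters of over 100 cells, these 5 values ran from 0.85 to 0.91. Each of the 5 was highest in mesenchymal-like cells, whereas the summed level of the 10 genes was highest in the CRABP1 and HOXB cluster.

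Other genes of the pathway differed less uniformly between the libraries. Of 13 further ERK-responsive genes 9 were counted; 3 of them passed 2-fold in favour of day 220 and 0 in favour of day 160, where 23.0% and 5.09% of all counted genes did. EPHA4, an ephrin receptor, stood at 52.0 CPM at day 220 and 7.87 CPM at day 160, FOSL1, an AP-1 subunit, at 12.4 CPM at day 220 and 2.93 CPM at day 160, and SPRED3 at 14.0 CPM at day 220 and 4.35 CPM at day 160. EPHA4, FOSL1 and SPRED3 passed the 10 CPM minimum at day 220 alone, which already favours that direction. EPHA2 followed with a log2 ratio of 0.98. The genes not counted were IER3, at 0.314 CPM at day 220 and 4.32 CPM at day 160, and SPRY3, DUSP5 and FLRT3. The last had log2 ratios of 0.39, 0.92 and 0.58 in that order. A list of 13 immediate early and stress genes included the heat-shock genes HSPA1A and HSPA1B. Of the 13, 9 were counted, and 0 were higher and 3 lower at day 220, set against the same 23.0% and 5.09%. IER2 stood at 96.2 CPM at day 220 and 351 CPM at day 160, FOS at 148 CPM at day 220 and 327 CPM at day 160, and HSPA1B at 16.5 CPM at day 220 and 41.9 CPM at day 160. JUNB had a log2 ratio of −0.92. EGR1, which is in both lists, had −0.51. The median log2 ratio was 0.97 over the counted ERK-responsive genes and −0.82 over the counted immediate early and stress genes.

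Of 6 FGF receptor genes, 4 were counted. FGFR3, a receptor of astrocytes and radial glia, stood at 5.45 CPM at day 220 and 20.8 CPM at day 160, the only one past 2-fold. FGFR1 stood at 201 CPM at day 220 and 118 CPM at day 160, FGFRL1, which lacks the kinase domain, at 54.5 CPM at day 220 and 40.0 CPM at day 160, and FGFR2 at 18.1 CPM at day 220 and 23.7 CPM at day 160; centred on intron length, FGFR2 had a log2 ratio of −1.33. The clusters rich in ETV1 at day 160 were not those rich in receptor transcripts: FGFR1 stood at 74.5 CPM in the CRABP1 and HOXB cluster and 57.5 CPM in CALB2 neuron-like cells, against 165 CPM in astrocyte-like cells, and FGFR3 at 1.52 CPM and 1.43 CPM, against 43.6 CPM.

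Of 22 FGF genes, 4 were counted. FGF1, which the labels also list as an added protein, stood at 21.6 CPM at day 220 and 1.93 CPM at day 160, with a log2 ratio of 2.95 as measured and 2.15 centred. It ran from 14.4 to 26.3 CPM over the 7 day 220 clusters. FGF12 and FGF13, which encode proteins that stay inside the cell, had log2 ratios of 2.16 and 1.15 as measured and −0.45 and −1.45 centred, and FGF2 had 0.72. Of 19 RAS to ERK relay genes 18 were counted; 5 were at least 2-fold higher as measured and 0 after centring, with medians of 0.60 and 0.07; over all counted genes the shares were 23.0% and 10.3%, and 5 of 18 is near the share as measured. The largest were BRAF (1.99), SOS1 (1.93), NF1 (1.73) and FRS2 (1.65). Of 17 genes for other receptor kinases and their ligands 9 were counted, 5 higher and 1 lower, where 23.0% and 5.09% of all counted genes were. After centring 3 were higher and 1 lower, where 10.3% and 7.37% were. ALK, ERBB4 and HBEGF passed the 10 CPM minimum at day 220 alone, and NTRK2 at day 160 alone. ALK stood at 251 CPM at day 220 and 2.19 CPM at day 160, and ERBB4 at 135 CPM at day 220 and 2.92 CPM at day 160. Their centred log2 ratios were 3.70 and 2.52. IGF1R had a log2 ratio of 2.34 as measured and 0.27 centred. NTRK2 stood at 2.16 CPM at day 220 and 18.8 CPM at day 160, with a centred log2 ratio of −4.86. Within day 220, ALK stood at 378 CPM in astrocyte-like cells and 42.6 CPM in the DLX6-AS1 and NPY cluster, while ERBB4 stood at 12.3 CPM and 343 CPM in the same clusters.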

How the data were processed

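Gene counts per barcode were deposited as raw UMI counts, made by the authors (the file headers give Cell Ranger 7.0.1). The submitters' processing notes list hg38, Seurat 4 and Cell Ranger 7, and libraries were made with a 10x Genomics 3′ kit, per the labels. Barcodes with at least 1000 genes and at most 15% mitochondrial UMIs passed, and doublets called by Scrublet (scanpy 1.11.5, expected rate 0.06) were removed. Counts were summed per library, cluster or class. CPM carry exact Poisson intervals, ratios exact conditional binomial intervals and shares exact Clopper-Pearson intervals, all at 95% and for counting error only. PCR and capture error between libraries are not covered, since each day has 1 library. A limit of 3 counts corresponds to 0.118 CPM at day 220 and 0.0261 CPM at day 160. Log2 ratios had 1 CPM added to both values, and genes were counted in a comparison at 10 CPM or more in at least 1 side.

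Clustering used 2000 variable genes without the 10 genes and the pathway lists, 30 components, 15 neighbours and Leiden resolution 0.5, and clusters were named after they were seen. Thinning to 5000 UMIs left out 30 shallower cells at day 220 and 690 at day 160. Gene spans and introns came from GENCODE 29 on GRCh38 and sequences from RefSeq. Promoter windows of DUSP4, ETV4 and ETV5 were not used here. No test was run, since there is 1 library per day. The interval and ratio calculation was tested on simulated data. Genes named outside the 10 were, by rule, up to 4 per list with the largest absolute log2 ratio, the 5 most like the 10 over clusters, and the 10 highest and 5 lowest in cells with at least 3 of the genes; clusters whose counts of genes past 2-fold are given, and the receptor, FGF1, ALK, ERBB4 and FOS values given by cluster or cell were chosen after they were seen. The pairs of genes given were likewise chosen after they were seen. The 10 genes and all lists were chosen with earlier results of these data known. Alternatives were other barcode filters, scalings, added constants, thinning depths, limits and cluster resolutions.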

Additional observations from a re-analysis of the deposited data

Results flagged for a closer look

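ETV1 moved in opposite directions in matched classes of cells. Its log2 ratio of day 220 over day 160 was 1.36 in astrocyte-like cells and 0.56 in mesenchymal-like cells, and −0.66 in cycling-like cells and −0.67 in neuron-like cells, and in each class the counting interval of the ratio lay on 1 side of equality. Centred on intron length the values were 0.75, 0.09, −1.45 and −1.64. Against the SST neuron-like cluster alone the neuron-like value was 0.60. The difference between the classes was not tested, since each day has 1 library.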

How the results depend on the processing

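No paired analysis was possible because each day has 1 library, and for the same reason no replicate could be left out. All 10 log2 ratios kept their sign under 11 alternatives. DUSP6 (0.80) and ETV4 (0.54) were under 2-fold with 10 CPM added, and ETV1 passed 2-fold lower (−1.13) once centred on intron length, so that the count of genes at least 2-fold lower was 1 in place of 0. The share of cells with at least 3 of the genes was 9.27% at day 220 and 0.652% at day 160 at 2000 UMIs, and 66.4% and 14.5% at 10000 UMIs. In astrocyte-like cells it was 18.2% and 0.714% at 2000 UMIs, and 83.1% and 15.03% at 10000 UMIs. With 2 or more genes the shares were 60.5% and 16.8% (astrocyte-like 78.6% and 15.8%), and with 4 or more 19.5% and 0.862% (31.0% and 1.40%). With 2 or more genes, the genes past 2-fold at day 220 were 13 higher and 17 lower, and those lower at day 160 were 0. The summed level in day 220 astrocyte-like cells was 1.53 times that of the other cells, 1.47 when clustered with the pathway genes, 1.41 at resolution 1.0 and 1.60 without ETV1. At day 160 it was 0.727 times, 0.786 when clustered with the pathway genes and 0.704 at resolution 0.3. Leaving out ETV1, chosen after seeing the data, turned the day 160 values round: astrocyte-like cells then stood at 1.16 times the rest, and the CRABP1 and HOXB cluster at 0.717 times, against 2.07 with ETV1; the construction of the sum gives the reason, as ETV1 supplied most of that cluster's UMIs. In neuron-like cells 7 of 10 genes in place of 4 were at least 2-fold higher once the DLX6-AS1 and NPY cluster was added at day 220, with or without the CRABP1 and HOXB cluster at day 160, and ETV1 turned round to 0.60 against the SST cluster alone, sets chosen after seeing the data. The log2 ratio of IGFBP3 in cells rich in these genes turned round with 2 or more genes, to 3.89 at day 220 and 0.74 at day 160; the cause was not tested. The day 220 library held 518 cells, 24 of them neuron-like.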
